A study of Danio rerio with 11 samples.

Results

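The exon junction complex (EJC) and the nonsense-mediated decay (NMD) machinery were followed through 2 early stages of zebrafish oogenesis in WT and znf706 mutant oocytes, as a set of 10 named genes: magoh, rbm8a, eif4a3, casc3, pym1, upf1, upf2, upf3a, upf3b and smg1. The set was taken up because magoh was far lower in mutant than in WT oocytes at stage I, so values of that comparison are given as a description of the members, without a test. Of the 10 genes, 9 were found by name among the 31952 gene IDs used, and 8 of these passed the filter on low values and entered the tests; upf3a did not pass it, and upf2 was not analysed here.

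Splicing leaves the EJC on messenger RNA just upstream of exon junctions. Its core is the helicase eIF4A3, held on RNA by the MAGOH-RBM8A heterodimer, with CASC3 (Barentsz) as a further partner, and PYM1 takes the complex apart during translation. When a ribosome stops upstream of a remaining EJC, UPF3B and UPF2 link it to the helicase UPF1, which the kinase SMG1 phosphorylates, and the transcript is degraded. In Drosophila oocytes, the magoh orthologue mago nashi, the rbm8a orthologue tsunagi and barentsz are needed to carry oskar RNA to the posterior pole, where the germ plasm forms.

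Oocytes came from 3-month-old juvenile females, either WT or homozygous for the CRISPR/Cas9 allele tsu7d of znf706, a small zinc finger gene. MZznf706 is the genotype label of the mutant libraries. Each library held polyadenylated RNA of about 600 stage I or about 150 stage II oocytes, picked by hand after enzymatic digestion of the ovary. There were 8 libraries in 4 groups of 2 (WT and mutant, each at stage I and stage II), which the series text calls biological replicates; it does not say how many fish each pool came from. The 3 CUT&Tag libraries of the series (1 with IgG, 2 with anti-Znf706) were not analysed here.

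Levels are FPKM, fragments scaled to the length of the transcript and to the mapped fragments of the library, so that genes can be set side by side. Read depth is unknown, since FPKM do not show it; summed FPKM ran from 653659 to 899582 per library, and 11992 to 12691 genes reached 1 FPKM. Transcript of znf706 itself stood at 232 and 238 FPKM in WT stage I, 181 and 147 FPKM in mutant stage I, 158 and 143 FPKM in WT stage II, and 129 and 142 FPKM in mutant stage II oocytes. The 8 oocyte markers (buc, zar1, gdf9, bmp15, figla, zp3b, dazl and ddx4) summed to 2920 to 4800 FPKM in every library. This fits the oocyte label, but the sum hides differences between the genotypes. At stage I, 2 of the 8 were called higher and 1 lower in mutants, and at stage II 3 higher and 2 lower. The largest difference was in figla, which did not exceed 15.6 FPKM in any WT library and reached at least 52.7 FPKM in every mutant library. Its log2 differences were 2.82 ± 0.12 at stage I and 2.47 ± 0.12 at stage II (limma, adjusted p = 2.4e-06 and 5.7e-06). Each list of markers of other cells summed to far less than the oocyte markers, but not every gene in them was low, and several differed between the genotypes. The 8 granulosa and theca markers summed to 39.9 to 51.5 FPKM in WT and 72.3 to 108 FPKM in mutant libraries. Most of it came from the steroidogenic gene cyp17a1, with means of 47.8 (WT) and 100 FPKM (mutant) at stage I and 34.4 and 71.3 FPKM at stage II. Its log2 differences were 1.05 ± 0.07 and 1.03 ± 0.07 (limma, adjusted p = 2.8e-05 and 3.8e-05). The follicle cell receptor gene fshr was listed at 0 in all 8 libraries, and amh stayed at or below 0.0414 FPKM. The granulosa gene gsdf went the other way at stage II, from 5.41 and 4.39 FPKM in WT down to 0.839 and 2.79 FPKM in mutants (-1.15 ± 0.35, limma adjusted p = 0.031), and foxl2a, at 0.416 FPKM or less throughout, was lower in mutant libraries at both stages. The 8 leukocyte markers summed to 27.9 to 30.2 FPKM in WT and 35.2 to 42.1 FPKM in mutants, with the macrophage gene mpeg1.1 listed at 0 throughout. Most of each sum was rac2, at 26 to 32 FPKM, which did not pass between the genotypes (limma, adjusted p = 0.82 at stage I and 0.17 at stage II). Of the 4 tested, 3 were called higher in mutants at each stage (cd74a, cd74b and coro1a), where 18.4% of all genes rose at stage I and 25.4% at stage II. The 4 red blood cell markers (5 gene IDs) summed to 0.623 to 2.03 FPKM in WT and 2.62 to 5.27 FPKM in mutants. The 6 stroma and endothelium markers summed to 2.58 and 1.75 FPKM (WT) and 5.98 and 7.28 FPKM (mutant) at stage I, but to 5.27 and 4.32 FPKM (WT) and 2.97 and 4.27 FPKM (mutant) at stage II, where col1a1a and kdrl were lower in mutants (-1.16 and -0.96) and fn1a higher (0.71). These 3 genes, like the leukocyte genes cd74a and coro1a, passed the filter only through the genotype in which they were high. Their calls are thus not independent of the filter, and no p is given for them. These shifts run alongside every genotype difference given here, and their part in them was not tested. In pools of this kind, fewer cells of a type and less RNA per cell cannot be told apart.

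The gene that chose the set, magoh (ENSDARG00000038635), encodes the EJC core subunit that pairs with RBM8A. In WT stage I oocytes its level was 332 FPKM in replicate 1 and 321 FPKM in replicate 2, and in mutant stage I oocytes it was 5.87 and 7.08 FPKM. The WT stage II libraries held 6.91 and 8.89 FPKM, and the mutant stage II libraries 9 and 7.49 FPKM. The WT stage I libraries were thus high and the other 6 low, with no overlap, and no library listed the gene at 0. The mean level was 50.4-fold higher in WT than in mutant oocytes at stage I (log2 difference -5.46 ± 0.14 SE on the log2(FPKM + 1) scale, which is used throughout) and 41.3-fold higher in WT at stage I than in WT at stage II (log2 difference -5.21 ± 0.14). Both of these rest on the same WT stage I libraries, which chose the set, and neither was tested. Mutant oocytes differed little between the stages by comparison (log2 difference 0.31 ± 0.14, against a median of 0.32 over all genes). Among 13862 tested genes, magoh ranked 392 and 416 by level in the WT stage I libraries and between 7673 and 8466 in the other 6.

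The stage II libraries took no part in choosing the set. There the magoh levels of the genotypes overlapped, with means of 7.90 ± 1.40 FPKM in WT and 8.25 ± 1.07 FPKM in mutants (SD, n = 2). The log2 difference was 0.06 ± 0.14 and missed the threshold (limma, adjusted p = 0.77), and its sign turned under median-of-ratios scaling and quantile normalization (-0.05 and -0.06).

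**Figure D1:**
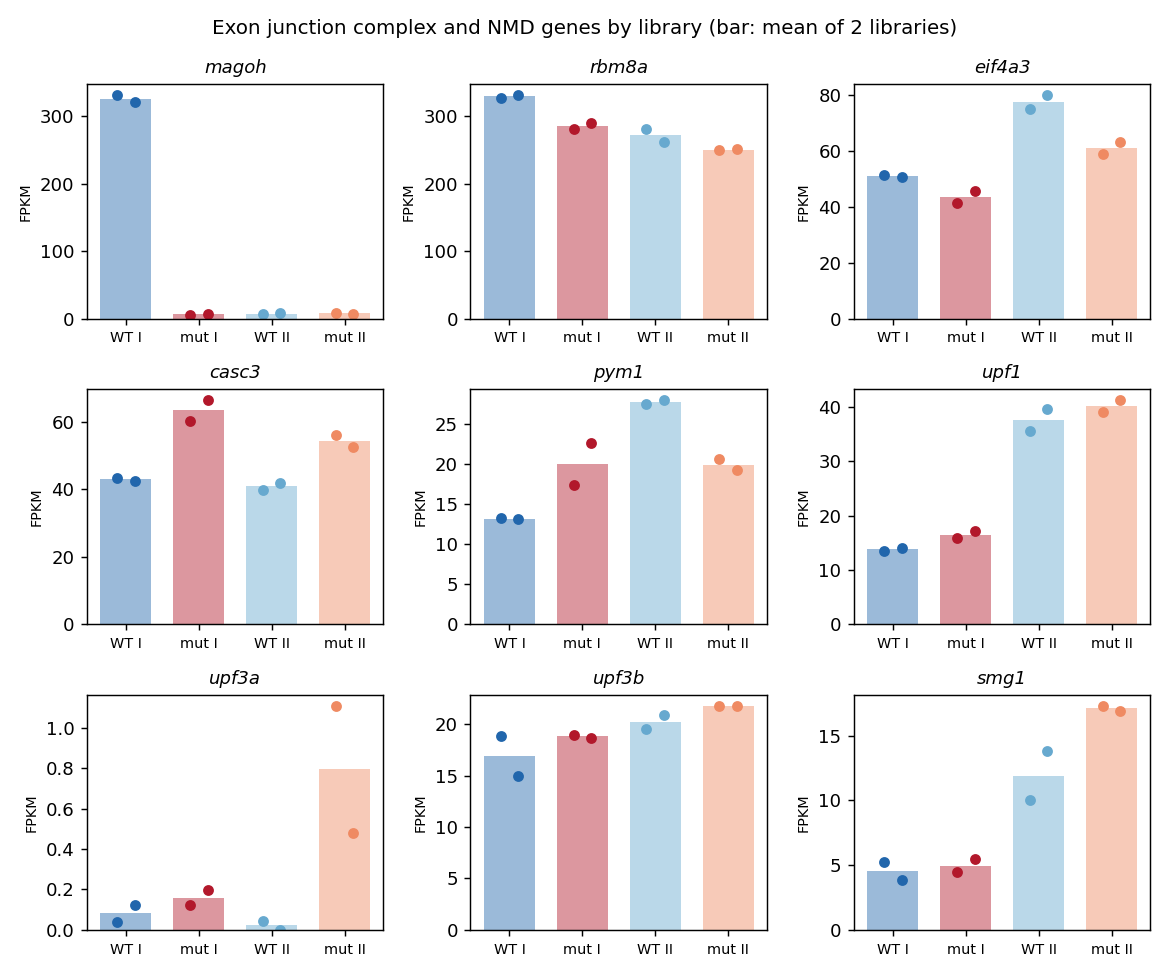
FPKM of the 9 listed members in each library (points, 2 per group) with the group mean (bars), each panel on its own linear axis from 0; I and II are the oocyte stages and mut the znf706 mutant. The magoh panel has a tall bar in WT stage I alone, while upf1 and smg1 are higher at stage II in both genotypes.

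Its partner rbm8a (ENSDARG00000016516, also known as Y14) showed no such drop. It stood at 328 and 332 FPKM in WT stage I, 282 and 291 FPKM in mutant stage I, 282 and 262 FPKM in WT stage II, and 250 and 251 FPKM in mutant stage II oocytes. Per 100 FPKM of rbm8a, there were 101 and 96.5 FPKM of magoh in the WT stage I libraries and 2.08 to 3.61 FPKM in the other 6. The transcripts of the heterodimer were therefore at near equal levels in WT stage I oocytes and in no other group. At stage II rbm8a did not pass the threshold between genotypes (-0.12 ± 0.06, adjusted p = 0.17).

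The genes on either side of magoh were looked at by gene order, taken from the gene table of another zebrafish assembly. Only genes found by a unique name in the FPKM data were kept, so other genes may lie between those named here. The nearest listed gene before magoh in this order was uck2a, for a uridine-cytidine kinase, and it was also highest in WT stage I. It stood at 122 and 119 FPKM there, 11.3 and 35.2 FPKM in mutant stage I, 36.3 and 36.3 FPKM in WT stage II, and 27.5 and 36.6 FPKM in mutant stage II oocytes. On the other side, cpt2, a mitochondrial carnitine palmitoyltransferase gene, stood at 14.9 and 13.6 FPKM in WT stage I and at 6.48 to 13.7 FPKM in the rest, so that it overlapped with mutant stage II. The next genes out were tmco1, an endoplasmic reticulum calcium channel gene, at 182 and 178 FPKM in WT stage I and 281 and 245 FPKM in mutant stage I, and porcn, for the acyltransferase that modifies Wnt ligands, at 0.471 FPKM or less in every library. Further out, spryd4 was picked after its values were seen: it stood at 108 and 121 FPKM in WT stage I and 51.5 to 62.8 FPKM elsewhere. Of the 5 listed genes on each side of magoh, 6 passed the filter, and in 3 of these (uck2a, spryd4 and zgc:112962) both WT stage I libraries exceeded the other 6, as they did in 1776 of all 13862 tested genes (12.8%). These are 6 neighbouring genes, and no test was made. How the deposited quantification assigned reads between adjacent genes is not given in the sources used here.

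**Figure D2:**
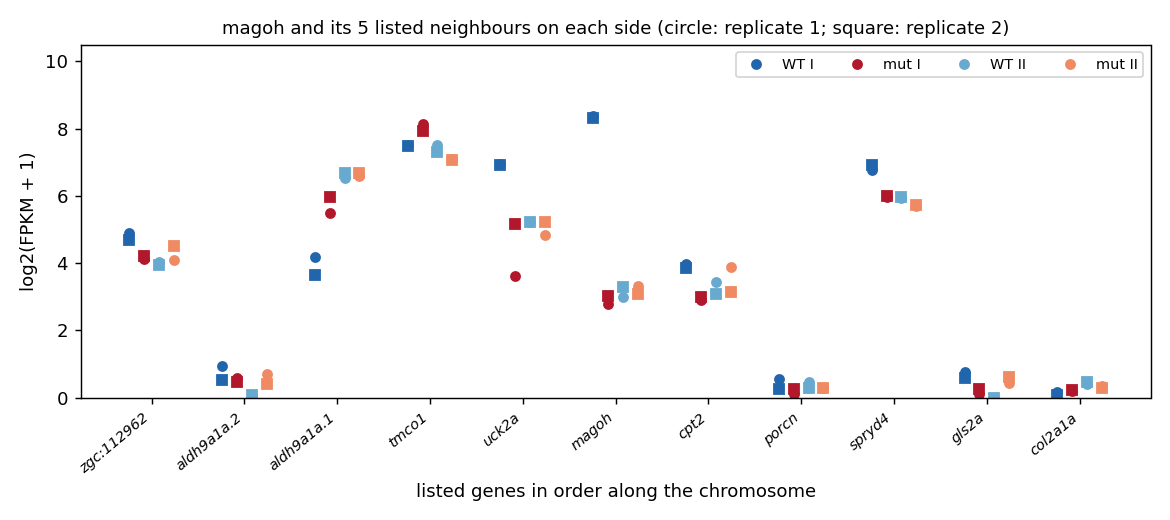
Level on the log2(FPKM + 1) scale of magoh and the 5 listed genes on each side of it in chromosomal order, 1 symbol per library coloured by group. For uck2a, magoh, spryd4 and zgc:112962 both WT stage I symbols lie above those of the other 6 libraries, with the widest gap for magoh.

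How many other genes had the magoh profile is given as a description, because the ranking used the values that chose the set. Of the 7446 tested genes with a mean of at least 10 FPKM, 5 gene IDs (0.0672%) had both WT stage I libraries at least 10-fold above all 6 others: magoh, the condensin gene ncapg, the survivin paralogue birc5b and both genes annotated qdprb2. In mutant stage I oocytes 3 genes stood apart upward in this way, in WT stage II 0 and in mutant stage II 2. Standing at least 10-fold below all other libraries was counted for 18 genes in WT stage I, 21 in mutant stage I, 12 in WT stage II and 45 in mutant stage II oocytes. The cut on the mean over the 8 libraries admits genes low in 1 group more readily than genes high in 1 group only. Counts in the 2 directions therefore cannot be compared, and levels listed at 0 count as low in both. Both magoh and ncapg met the cut only through the WT stage I libraries, where they were high. Over the 8 libraries, the 6 profiles most like that of magoh were ncapg (Pearson r = 0.9974), 1 of the qdprb2 genes (0.9970), zgc:77056 (0.9906), zgc:101130 (0.9810), the calcium-binding gene calub (0.9794) and shdb (0.9792). The points share libraries and the r rests on the WT stage I libraries standing apart. The drop itself differed in size among these genes: zgc:77056 went only from 71.4 and 72.9 FPKM in WT stage I to between 42.1 and 45.7 FPKM elsewhere.

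Among the remaining EJC genes, casc3 was the member whose call between genotypes at stage II held in all 17 alternatives. The gene (ENSDARG00000029911) encodes the core partner that binds eIF4A3 and was named Barentsz in Drosophila. WT stage II oocytes had 39.7 and 41.9 FPKM of it, mutant stage II oocytes 56.1 and 52.6 FPKM. Both mutant libraries lay above both WT libraries, a rise of 1.33-fold in the means (log2 difference 0.40 ± 0.08, limma adjusted p = 0.0048). The call held on leaving out any of the 8 libraries (adjusted p = 0.0060 to 0.040) and in the 9 other settings run (adjusted p = 0.0032 to 0.027). At stage I, in the untested comparison, the casc3 levels were 43.3 and 42.5 FPKM (WT) and 60.3 and 66.3 FPKM (mutant), also without overlap (0.55 ± 0.08).

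The helicase gene eif4a3 (ENSDARG00000102978) was lower in mutants where casc3 was higher. It stood at 51.2 and 50.7 FPKM in WT stage I, 41.3 and 45.7 FPKM in mutant stage I, 74.8 and 79.9 FPKM in WT stage II, and 58.9 and 63.1 FPKM in mutant stage II oocytes, so the genotypes did not overlap at either stage. At stage II it fell to 0.789 of the WT mean (log2 difference -0.34 ± 0.08, adjusted p = 0.011). This call was lost without WT stage II replicate 2 (-0.29, adjusted p = 0.063) and without mutant stage II replicate 1 (-0.29, adjusted p = 0.078). Per 100 FPKM of eif4a3 there were 84.7 and 83.8 FPKM of casc3 in WT stage I, 146 and 145 in mutant stage I, 53.1 and 52.5 in WT stage II, and 95.2 and 83.3 in mutant stage II libraries. The ratio was higher in mutant than in WT libraries at both stages, without overlap.

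The disassembly factor gene pym1 (ENSDARG00000046024) went in opposite directions at the 2 stages. It stood at 13.2 and 13.1 FPKM in WT stage I and 17.3 and 22.6 FPKM in mutant stage I oocytes (0.55 ± 0.13, not tested), and at 27.4 and 27.9 FPKM in WT stage II and 20.6 and 19.2 FPKM in mutant stage II oocytes. Mutants were thus above WT at stage I and below WT at stage II, each without overlap. The stage II difference passed the threshold (-0.46 ± 0.13, adjusted p = 0.021), but the call was lost without any 1 of the 4 stage II libraries (adjusted p = 0.070 without WT replicate 1, 0.077 without WT replicate 2, 0.058 without mutant replicate 1 and 0.10 without mutant replicate 2), with log2 differences of -0.50 to -0.41.

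None of the 3 tested NMD genes passed the threshold between genotypes at stage II. The helicase gene upf1 (ENSDARG00000016302) had WT levels of 35.5 and 39.6 FPKM and mutant levels of 39.0 and 41.2 FPKM, which overlap (0.09 ± 0.09, adjusted p = 0.45). Its linker gene upf3b (ENSDARG00000000489) was at 19.5 and 20.9 FPKM (WT) and 21.8 and 21.8 FPKM (mutant), without overlap (0.11 ± 0.12, adjusted p = 0.48). Under median-of-ratios scaling both signs turned (-0.02 and -0.01). The kinase gene smg1 (ENSDARG00000054570) had WT levels of 10 and 13.8 FPKM and mutant levels of 17.3 and 16.9 FPKM, which did not overlap (0.50 ± 0.19). It missed the threshold (adjusted p = 0.064) and passed it without WT stage II replicate 2 (0.71, adjusted p = 0.037) and with a pseudocount of 5 (0.39, adjusted p = 0.040).

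At stage I, in the untested comparison, the log2 differences of these 3 genes were 0.24 ± 0.09 for upf1, 0.11 ± 0.19 for smg1 and 0.16 ± 0.12 for upf3b. For upf1 the WT libraries had 13.5 and 14.1 FPKM and the mutant libraries 15.8 and 17.1 FPKM, without overlap. For smg1 these were 5.27 and 3.88 against 4.50 and 5.44 FPKM, and for upf3b 18.9 and 15.0 against 19.0 and 18.7 FPKM, both with overlap. The upf3b paralogue upf3a (ENSDARG00000069297), a weaker NMD factor in mammals, was nearly silent: it stood at 0.0398 and 0.123 FPKM in WT stage I, 0.123 and 0.196 FPKM in mutant stage I, 0.0443 and 0 FPKM in WT stage II, and 1.11 and 0.482 FPKM in mutant stage II oocytes. Only with no filter on low values did it enter the fit, where the stage II difference passed (0.79 ± 0.16, adjusted p = 0.018), as did the difference between the stages in mutants (0.61 ± 0.16, adjusted p = 0.028) but not that in WT (-0.08 ± 0.16, adjusted p = 0.79). No fold is given against a group with a library at 0.

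Across the tested members at stage II, 1 of 8 rose (casc3) and 2 of 8 fell (eif4a3 and pym1). Of all 13862 tested genes, 25.4% rose and 19.2% fell in this comparison, so the share of members that passed was not above the background. The median log2 difference was 0.08 over the 8 members and 0.07 over all genes. The share of calls that were rises was 57.0% on the deposited scale, 45.1% with median-of-ratios scaling and 51.7% with quantile normalization. At stage I, 1 of 8 members (magoh) was at least 2-fold lower on the log2(FPKM + 1) scale, as were 7.52% of all genes, and 0 were at least 2-fold higher, as were 6.33% of all genes; nothing is read from this count, because the comparison chose the set.

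**Figure D3:**
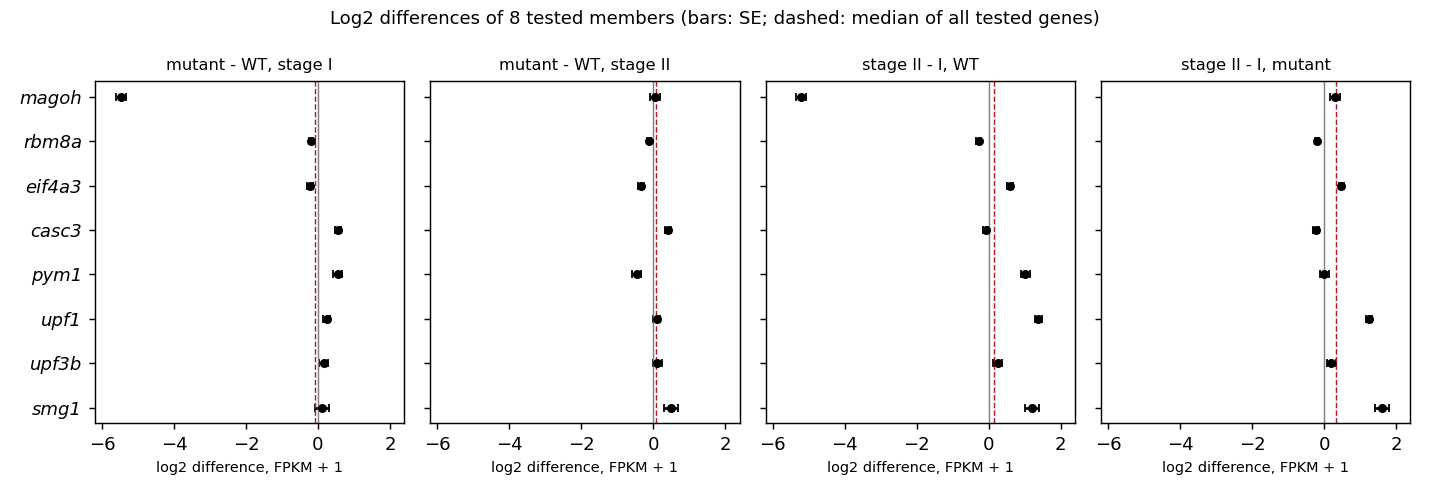
Log2 differences on the FPKM + 1 scale (points) with SE (bars) of the 8 tested members in 4 comparisons; the dashed line is the median of all tested genes. Apart from magoh, the members lie between -0.22 and 0.55 for genotype at stage I and between -0.46 and 0.50 at stage II, whereas upf1 and smg1 are more than 1 higher at stage II than at stage I in both genotypes.

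Between the stages, the genes of the NMD helicase and its kinase rose in both genotypes. From stage I to stage II, upf1 rose from 13.8 ± 0.412 to 37.6 ± 2.92 FPKM in WT (SD, n = 2; log2 difference 1.38 ± 0.09, adjusted p = 2.5e-05) and from 16.5 ± 0.864 to 40.1 ± 1.56 FPKM in mutants (1.24 ± 0.09, adjusted p = 2.8e-05). Its kinase smg1 rose from 4.58 ± 0.984 to 11.9 ± 2.65 FPKM in WT (1.21 ± 0.19, adjusted p = 0.00095) and from 4.97 ± 0.667 to 17.1 ± 0.295 FPKM in mutants (1.60 ± 0.19, adjusted p = 0.00019). For both genes every stage II library was above every stage I library. All genes together shifted by a median of 0.15 in WT and 0.32 in mutants between the stages, and both scalings brought these medians to 0.06 or less. Relative to these medians upf1 was up by 1.23 and 0.91, and smg1 by 1.05 and 1.28. Both genes passed in all alternatives in both genotypes (adjusted p of 0.0071 or less). The level of upf1 was 2.26 to 3.63 times that of smg1 in all 8 libraries.

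The linker gene upf3b did not follow them. Its levels were 16.9 ± 2.75 FPKM at stage I and 20.2 ± 1.01 FPKM at stage II in WT (0.25 ± 0.12, adjusted p = 0.10) and 18.9 ± 0.210 and 21.8 ± 0.010 FPKM in mutants (0.20 ± 0.12, adjusted p = 0.17). In WT it passed without WT stage I replicate 1 (0.41, adjusted p = 0.017), and its sign turned in WT under quantile normalization (-0.02) and in mutants under either scaling (median-of-ratios -0.19; quantile -0.27, adjusted p = 0.032).

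Between the stages, the EJC core genes went in different directions. Transcript of eif4a3 rose from 50.9 ± 0.326 to 77.3 ± 3.60 FPKM in WT (0.59 ± 0.08, adjusted p = 0.00044, 0.44 relative to the median of all genes) and from 43.5 ± 3.13 to 61.0 ± 2.96 FPKM in mutants (0.48 ± 0.08, adjusted p = 0.0011, 0.15 relative to the median). Median-of-ratios scaling ended the mutant call (0.07, adjusted p = 0.46). Transcript of rbm8a fell from 330 ± 3.19 to 272 ± 14.2 FPKM in WT (-0.28 ± 0.06, adjusted p = 0.0061) and from 286 ± 6.45 to 250 ± 1.23 FPKM in mutants (-0.19 ± 0.06, adjusted p = 0.029). Its sign turned after quantile normalization in both (0.05 in WT, and 0.18 with adjusted p = 0.026 in mutants), and the mutant call was lost without any 1 of the 4 mutant libraries (-0.22 to -0.17, adjusted p = 0.055 to 0.12). There were 15.6 and 15.3 FPKM of eif4a3 per 100 FPKM of rbm8a in WT stage I and 26.5 and 30.5 in WT stage II libraries, and 14.6 and 15.7 against 23.6 and 25.1 in mutants.

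For casc3 the WT levels of 42.9 ± 0.598 and 40.8 ± 1.54 FPKM did not differ beyond the threshold (-0.07 ± 0.08, adjusted p = 0.47), although it passed as a fall under either scaling (median-of-ratios -0.28, adjusted p = 0.022; quantile -0.27, adjusted p = 0.016). In mutants it fell from 63.3 ± 4.23 to 54.3 ± 2.48 FPKM (-0.22 ± 0.08, adjusted p = 0.040), a call lost in 5 of the 8 fits without 1 library (adjusted p of 0.050 without either WT stage II library, 0.067 without mutant stage II replicate 1, 0.20 without mutant stage II replicate 2 and 0.20 without mutant stage I replicate 2). The disassembly gene pym1 rose in WT, from 13.2 ± 0.0663 to 27.7 ± 0.320 FPKM (1.02 ± 0.13, adjusted p = 0.00031). In mutants it stood at 20.0 ± 3.71 FPKM at stage I and 19.9 ± 0.954 FPKM at stage II (0.01 ± 0.13, adjusted p = 0.98). Relative to the median of all genes the mutant difference was -0.32, and it passed as a fall under either scaling (median-of-ratios -0.39, adjusted p = 0.032; quantile -0.48, adjusted p = 0.0097).

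With magoh set aside, 4 of 7 tested members rose between the stages in WT (upf1, smg1, pym1 and eif4a3) and 1 fell (rbm8a), where 38.1% of all genes rose and 22.2% fell. In mutants 3 of 7 rose (upf1, smg1 and eif4a3) and 2 fell (rbm8a and casc3), where 47.3% of all genes rose and 18.7% fell. The median over the 7 members was 0.59 in WT and 0.20 in mutants. The share of calls that were rises was 63.2% on the deposited scale, 50.2% with median-of-ratios scaling and 53.4% with quantile normalization in WT, and 71.6%, 48.9% and 56.1% in mutants. By mean level, the order in WT stage I oocytes was rbm8a and magoh, whose levels overlapped, then eif4a3, casc3, upf3b, upf1, pym1 and smg1, with upf3a last. In WT stage II oocytes it was rbm8a, eif4a3, casc3, upf1, pym1, upf3b, smg1, magoh and upf3a, where casc3 and upf1 came as close as 39.7 and 39.6 FPKM. In mutant stage I oocytes it was rbm8a, casc3, eif4a3, pym1, upf3b, upf1, magoh, smg1 and upf3a, with pym1 overlapping upf3b. In mutant stage II oocytes it was rbm8a, eif4a3, casc3, upf1, upf3b, pym1, smg1, magoh and upf3a, without overlap between neighbours.

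The wider pathway was read from 4 lists of 58 genes in all, of which 54 were listed and tested. At stage I, 16 of the 54 rose in mutants and 8 fell, where 18.4% of all genes rose and 26.9% fell. The 16 rises became 9 without mutant stage I replicate 2. At stage II, 19 of the 54 rose and 10 fell, where 25.4% of all genes rose and 19.2% fell (11 and 4 without mutant stage II replicate 1, 12 and 6 without mutant stage II replicate 2, and 12 and 7 without either WT stage II library). The rises counted include etf1a at both stages, and gadd45aa and upp1 at stage II. These genes passed the filter only through mutant libraries, so the counts of rises are not independent of it. Among the falls at stage I and the rises at stage II is rnps1, which passed it only through the higher group at each stage. These counts are not independent of the filter for that reason too. The genotype difference itself differed between the stages in 17 genes, upward in 7 and downward in 10, where 23.3% of all genes passed upward and 13.0% downward. The 7 include rnps1, sap18 and gadd45aa, whose calls are not independent of the filter. The largest fall at stage I that passed was in rnps1, for a splicing factor that joins the EJC in the ASAP complex. It stood at 4.77 and 4.67 FPKM in WT stage I and 0.105 and 0.152 FPKM in mutant stage I oocytes (-2.34 ± 0.14). At stage II it was the other way round, with 0.745 and 0.765 FPKM (WT) and 8.19 and 8.96 FPKM (mutant) (2.45 ± 0.14). Its low levels were highest in mutant stage II and lowest in mutant stage I oocytes, with no overlap of any groups. It passed the filter only through the WT stage I and mutant stage II libraries, the higher group at each stage. Its calls are thus not independent of the filter, so no p is given, and its log2 values depend on the pseudocount.

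The counts per list that follow are small and are read against these same shares of all genes. In the list of EJC periphery, cap binding and export, 3 of 17 rose and 3 fell at stage I (median 0.04, against -0.08 for all genes), and 5 rose and 4 fell at stage II (median -0.09, against 0.07). The falls at stage I and the rises at stage II include rnps1, whose calls are not independent of the filter. The export gene thoc6, a THO complex subunit, fell at both stages. It stood at 67.5 and 67.4 FPKM against 28.0 and 25.9 FPKM at stage I (-1.29 ± 0.15, adjusted p = 0.00032) and 99.3 and 75.9 FPKM against 26.6 and 33.6 FPKM at stage II (-1.51 ± 0.15, adjusted p = 0.00018). Another THO subunit gene, thoc2, rose at stage I from 10.1 and 8.68 FPKM to 19.9 and 22.5 FPKM (1.1 ± 0.11, adjusted p = 0.00019) and did not pass at stage II (0.06 ± 0.11, adjusted p = 0.71). At stage II, sap18, a partner of RNPS1, rose from 18.0 and 26.2 FPKM to 55.3 and 57.4 FPKM (1.33 ± 0.18, adjusted p = 0.00096), and the export adaptor gene alyref fell from 222 and 217 FPKM to 127 and 133 FPKM (-0.75 ± 0.13, adjusted p = 0.0025). The helicase genes ddx39b and ddx39ab, whose products load export factors, moved apart at both stages. At stage I the log2 differences were 0.42 (limma, adjusted p = 0.020) and -0.56 (adjusted p = 0.00057). At stage II they were 0.61 (adjusted p = 0.0041) and -0.29 (adjusted p = 0.013). The stage II fall of ddx39ab did not pass without WT stage II replicate 1 (-0.23) or mutant stage II replicate 1 (-0.25). The stage I rise of ddx39b did not pass without WT stage I replicate 1 (0.39) or either mutant stage I library (0.40 and 0.44). Nor did it pass with only the 4 stage I libraries (0.42).

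In the list of NMD and termination factors, 6 of 16 rose and 1 fell at stage I (median 0.12), and 5 rose and 3 fell at stage II (median 0.16). These rises include etf1a at both stages, whose calls are not independent of the filter, as given below. At stage I the rises included smg6, for the endonuclease that cuts NMD targets, from 5.29 and 4.82 FPKM to 9.36 and 10.8 FPKM (0.87 ± 0.16, adjusted p = 0.0031), and smg8, for a regulator bound to SMG1, from 27.1 and 26.4 FPKM to 36.9 and 40.5 FPKM (0.51 ± 0.10, adjusted p = 0.0036). The release factor gene gspt1 fell from 4.26 and 3.90 FPKM to 2.06 and 2.05 FPKM (-0.73 ± 0.13, adjusted p = 0.0034). At stage II gspt1 was instead called higher in mutants (0.46 ± 0.13, limma adjusted p = 0.025). That call was lost without any 1 of the 4 stage II libraries and under quantile normalization. At stage II the largest rise was in pnrc2, which links UPF1 to decapping, from 11.3 and 9.78 to 35.9 and 34.5 FPKM (1.65 ± 0.15, adjusted p = 0.00015). The ATPase gene ruvbl1 fell from 133 and 145 FPKM to 105 and 107 FPKM (-0.39 ± 0.08, adjusted p = 0.0058). Of the other release factor genes, gspt1l fell at stage II (-0.21, adjusted p = 0.036), a call lost without any 1 of the 4 stage II libraries (adjusted p = 0.10 to 0.16). Levels of etf1a were 1.04 FPKM or less throughout and higher in mutants at both stages (0.99 and 0.50), but it passed the filter only through mutant libraries, so its calls are not independent of the filter. Levels of etf1b varied within groups. It was listed at 100 and 95.1 FPKM in WT stage I, 0 and 0 in mutant stage I, 0 and 129 FPKM in WT stage II and 0 and 147 FPKM in mutant stage II libraries, and passed in no comparison (adjusted p = 0.067 at stage I). A 0 in such a table can be a failed estimate, so no fold is given.

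Among decapping and decay genes, 4 of 11 rose and 3 fell at stage I (median 0.25), and 4 rose and 1 fell at stage II (median 0.21). The 3 that fell at stage I were the decapping genes dcp2, edc3 and dcp1b. Of the other decapping genes, dcp1a did not pass (-0.12, adjusted p = 0.37), and edc4 was called higher (0.56, adjusted p = 0.036), a call lost in 5 of the 8 fits without 1 library (without WT stage I replicate 2 or any 1 of the 4 mutant libraries, adjusted p = 0.052 to 0.18). The catalytic gene dcp2 fell from 36.5 and 27.8 FPKM to 16.6 and 13.3 FPKM (-1.05 ± 0.15, adjusted p = 0.00094), edc3 from 21.0 and 14.3 FPKM to 8.51 and 8.10 FPKM (-0.98 ± 0.17, adjusted p = 0.0028) and dcp1b from 4.08 and 3.94 FPKM to 1.57 and 1.65 FPKM (-0.94 ± 0.14, adjusted p = 0.0012). At stage II the dcp2 levels were 60.2 and 59.3 FPKM (WT) and 68.4 and 59.8 FPKM (mutant) (0.10 ± 0.15, adjusted p = 0.62). There dcp1b was again lower in mutants (-0.60 ± 0.14, limma adjusted p = 0.011), and dcp1a was higher (0.51 ± 0.10, adjusted p = 0.0047). The stage II call for dcp1b was lost without WT stage II replicate 1 (-0.55) or mutant stage II replicate 1 (-0.54), and that for dcp1a in no alternative. The gene patl2, an oocyte form of the decapping activator Pat1, rose at both stages, from 209 and 228 FPKM to 332 and 349 FPKM (0.64 ± 0.08, adjusted p = 0.00066) and from 149 and 156 FPKM to 251 and 220 FPKM (0.62 ± 0.08, adjusted p = 0.00089). The helicase gene ddx6 rose at stage II from 4.96 and 4.83 FPKM to 13.1 and 11.1 FPKM (1.15 ± 0.20, adjusted p = 0.0029) and at stage I by 0.93 ± 0.20 (adjusted p = 0.0070), which did not pass without mutant stage I replicate 2 (0.74, adjusted p = 0.056).

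Of 10 transcripts known as NMD targets in mammals, all of them also regulated in other ways, 3 rose and 1 fell at stage I (median 0.16), and 5 rose and 2 fell at stage II (median 0.51, against 0.07 for all genes, of which 25.4% rose and 19.2% fell). The 5 rises at stage II include gadd45aa and upp1, which passed the filter only through mutant libraries. This count, and the median of 0.51 that includes both genes, are therefore not independent of the filter. The stress transcription factor gene atf3 rose at stage II from 4.21 and 6.22 FPKM to 16.5 and 18.4 FPKM (1.59 ± 0.26, adjusted p = 0.0020). The growth arrest gene gadd45aa was at 0.371 and 0.138 FPKM (WT) and 1.73 and 2.35 FPKM (mutant) there (1.28 ± 0.24), but it passed the filter only through mutant libraries, so its call is not independent of the filter. The other rises were lost without single libraries: atf4b without WT stage II replicate 1 or mutant stage II replicate 1 (adjusted p = 0.12 and 0.13), gadd45ba without either WT stage II library or mutant stage II replicate 2 (adjusted p = 0.091, 0.054 and 0.11), and upp1 without WT stage II replicate 2 (adjusted p = 0.087), and upp1 also passed the filter only through the mutant stage II libraries. The fall of atf4a (-0.36, adjusted p = 0.043) was lost in every fit without 1 library other than that without WT stage II replicate 1 (adjusted p of up to 0.23). In contrast, tbl2 fell at both stages, from 64.4 and 63.5 FPKM to 47.5 and 52.6 FPKM (-0.35 ± 0.07, adjusted p = 0.0057) and from 131 and 137 FPKM to 81.7 and 84.1 FPKM (-0.69 ± 0.07, adjusted p = 0.00027). The 3 rises at stage I (atf3, gadd45ab and atf4a) each failed to hold in some fits without 1 library. The call for atf3 was lost without WT stage I replicate 2, mutant stage I replicate 1 or mutant stage I replicate 2 (adjusted p = 0.091, 0.060 and 0.10). The call for gadd45ab was lost without either WT stage I library (0.097 and 0.15), mutant stage I replicate 1 (0.25) or either WT stage II library (0.060 each, all adjusted p). The call for atf4a was lost without WT stage I replicate 1 or mutant stage I replicate 2 (adjusted p = 0.11 and 0.099). NMD itself was not measured, since gene-level FPKM do not separate transcripts with and without premature stop codons.

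**Figure D4:**
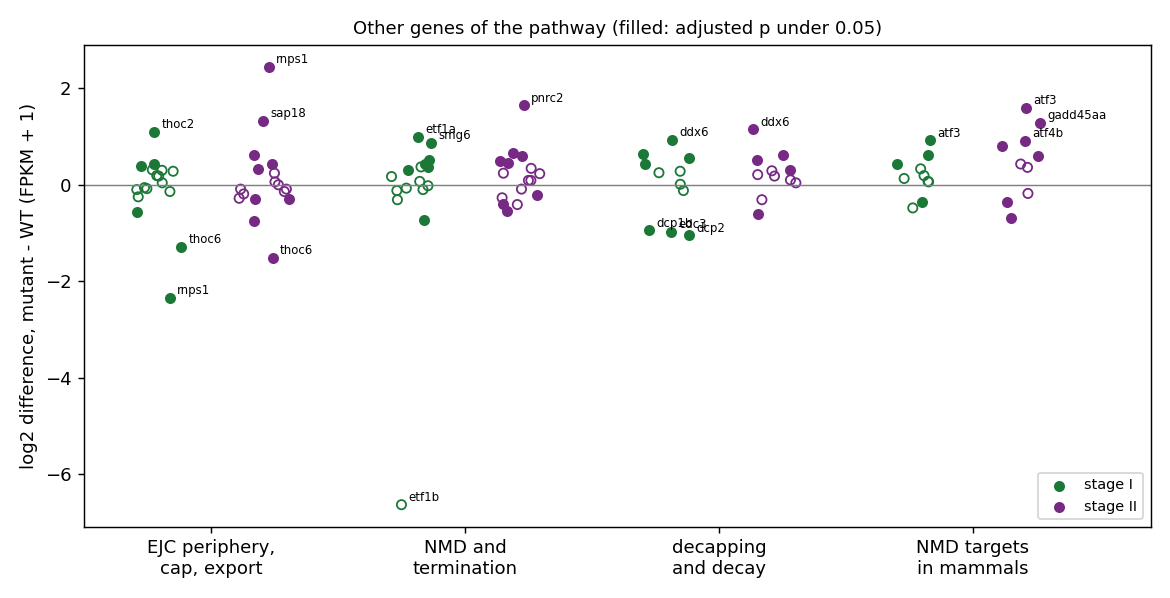
Log2 differences between mutant and WT oocytes (FPKM + 1 scale) of the 54 other pathway genes in 4 lists, stage I in green and stage II in purple; filled points passed the threshold, and genes at 0.85 or more from 0 are named. Filled points lie on both sides of 0 in every list, rnps1 lies low at stage I and high at stage II, and the open point of etf1b at -6.63 comes from a gene listed at 0 in 4 libraries.

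Between the stages, 28 of the 54 pathway genes rose and 12 fell in WT, and 28 rose and 9 fell in mutants, against the shares of all genes given above. The rises include sap18 in both genotypes and rnps1 and upp1 in mutants, and the falls in WT include rnps1. These genes passed the filter only through libraries in which they were high, so these counts are not independent of it. With median-of-ratios scaling the mutant split became 16 and 17. Levels of sap18 went from 0.493 and 0.369 FPKM at stage I to 18.0 and 26.2 FPKM at stage II in WT (3.99 ± 0.18) and from 0.205 and 0.202 FPKM to 55.3 and 57.4 FPKM in mutants (5.57 ± 0.18). It passed the filter only through the stage II libraries, where it was high, so no p is given, and these log2 values depend on the pseudocount. The factor gene cwc22, whose product delivers eIF4A3 to the spliceosome, rose by 1.54 ± 0.11 in WT (adjusted p = 2.9e-05) and 0.96 ± 0.11 in mutants (adjusted p = 0.00016), alongside the rises of eif4a3. The cap-binding gene ncbp2 fell by 0.73 in WT (adjusted p = 0.00025) and by 1.21 in mutants (adjusted p = 2.3e-05), and lsm1, of the decapping-activating Lsm ring, by 0.98 (adjusted p = 0.00015) and 0.96 (adjusted p = 0.00013). Of the 11 decapping and decay genes, 5 rose and 3 fell in WT, and 7 rose and 3 fell in mutants, read against the same shares. The largest rises in that list were in edc4 (1.30 in WT and 1.03 in mutants), xrn1 (0.99 and 0.95) and dcp2 (0.89 and 2.04). All of these had a limma adjusted p of 0.0015 or less. In WT the genes smg5 and smg6, which act on phosphorylated UPF1, rose together with upf1 and smg1 (0.80 and 0.93, adjusted p = 0.0017 and 0.0014). In mutants smg6 did not pass (0.40, adjusted p = 0.055) and the call for smg5 (0.47, adjusted p = 0.018) was lost under either scaling (0.09 with median-of-ratios, -0.05 with quantile normalization) and without mutant stage I replicate 1, mutant stage I replicate 2 or mutant stage II replicate 1 (adjusted p = 0.055, 0.082 and 0.12).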

How the data were processed

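Polyadenylated RNA of 8 oocyte libraries (WT and znf706 mutant, stage I and II, n = 2 each) was analysed from 1 table of FPKM that the authors deposited. The submitters' processing notes name Trim Galore, STAR 2.5.3a and Cufflinks 2.2.1 as tools and danRer11 as the build. The annotation, and how reads of copies or adjacent genes were divided, are not given in the sources used here, and depth per library is unknown. The table has 32197 entries under 32055 gene IDs. Repeats that were identical (24) were kept once, and the 103 IDs whose repeats disagreed were dropped. The 13862 genes that reached 1 FPKM in 2 or more libraries were tested as log2(FPKM + 1), with no further scaling, in 1 limma fit (R 4.3.3, limma 3.58.1; 4 group means, trend in the prior, 4 residual degrees of freedom). Calls are Benjamini-Hochberg adjusted p under 0.05 over all tested genes. The fit was also run on simulated data with independent normal noise on the log2 scale. These data held no shift in scale between libraries, so they cannot show how calls depend on scaling, the filter or the pseudocount. SD come from the 2 libraries of a group. SE and p-values rest on 1 spread per gene, pooled over the 4 groups and moderated towards that of all tested genes (3.78 prior degrees of freedom). They measure the spread between these pools.

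Members were matched by gene name. The members, the 4 pathway lists (ncbp1, nxf1a, nxf1b and nxt1 were not analysed here) and the marker lists were chosen with earlier results of these data known. Because magoh at stage I chose the set, the stage I genotype difference and the interaction carry no p for members, nor do the stage differences of magoh. Genes named were all members, up to 3 called rises and 3 called falls per list and comparison (a selection is described; thoc2 at stage II, dcp2 at stage II, etf1b, and smg5 and smg6 between stages were added after their values were seen), the 6 profiles most like magoh, and 2 neighbours on each side. Gene order came from the RefSeq gene table of GRCz12tu, and no coordinates were used. The settings varied were the pseudocount (0.1 or 5), the filter (none, or a mean of 5 FPKM or more), median-of-ratios scaling, quantile normalization, no trend, a replicate block, only the 4 libraries of a contrast, and leaving out each library in turn. Where this left 1 library in a group, it was taken to vary like the others.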

Additional observations from a re-analysis of the deposited data

Results flagged for a closer look

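The genotype difference of pym1 had opposite signs at the 2 stages, with both mutant libraries above both WT libraries at stage I and below them at stage II. The stage II difference minus the stage I difference was -1.01 on the log2 scale; this was not tested, because the stage I comparison chose the set.

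Among the 54 other pathway genes, the genotype difference itself differed between the stages (limma interaction) in 17, 7 upward and 10 downward at stage II relative to stage I, where 23.3% and 13.0% of all genes passed. The upward differences were in rnps1 (4.79), sap18 (1.58), pnrc2 (1.28, adjusted p = 0.0035), gspt1 (1.19, adjusted p = 0.0027), dcp2 (1.15, adjusted p = 0.0048), gadd45aa (1.09) and dcp1a (0.63, adjusted p = 0.011). The downward differences were in thoc2 (-1.04, adjusted p = 0.0022), alyref (-1.02, adjusted p = 0.0041), atf4a (-0.79, adjusted p = 0.0093), cwc22 (-0.58, adjusted p = 0.022), ruvbl2 (-0.57, adjusted p = 0.013), pnn (-0.53, adjusted p = 0.011), ncbp2 (-0.48, adjusted p = 0.020), pabpc1a (-0.47, adjusted p = 0.028), ruvbl1 (-0.37, adjusted p = 0.034) and tbl2 (-0.34, adjusted p = 0.035). Of these, gadd45aa passed the filter on low values only through mutant libraries, so its call is not independent of the filter. The gene sap18 was at 0.493 FPKM or less at stage I and passed the filter only through the stage II libraries. Its call is not independent of the filter either, and its value depends on the pseudocount. The same holds for rnps1, which passed the filter only through the WT stage I and mutant stage II libraries. No p is given for gadd45aa, sap18 and rnps1, and the count of upward differences, which includes them, is not independent of the filter. On leaving out each of the 8 libraries in turn, the calls for gadd45aa and tbl2 were lost in 7 fits and that for ruvbl1 in 6. The call for cwc22 was lost in 5 fits, those for ncbp2 and pabpc1a in 4 each, and that for dcp1a in 1. The highest adjusted p came without mutant stage II replicate 1 for ncbp2 and tbl2, and without mutant stage II replicate 2 for gadd45aa, dcp1a and pabpc1a. For cwc22 and ruvbl1 it came without WT stage II replicate 2. Of the other settings, 3 ended the call for gadd45aa, 3 that for pabpc1a, 2 that for ruvbl1, and 1 each those for ncbp2 and tbl2.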

How the results depend on the processing

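With the replicate number as a block, the members gave 1 rise and 2 falls at stage II, 4 and 1 between stages in WT, and 3 and 1 in mutants, where the fall of casc3 was lost. Replicate deviations of different groups correlated at -0.04 to 0.06, so the numbers do not pair the libraries. Members rising at stage II numbered 2 with a pseudocount of 5 and 2 with no filter. Members falling between stages numbered 2 in WT after median-of-ratios scaling, and in mutants 0 with no trend and 1 with only the 4 libraries of the contrast. Leaving out 1 library gave 1 to 2 rises and 0 to 2 falls at stage II (0 without WT stage II replicate 2 or mutant stage II replicate 1), 4 to 5 rises between stages in WT, and 0 to 2 falls in mutants (0 without mutant stage I replicate 2 or either mutant stage II library). Signs turned at stage II for magoh (-0.05 after median-of-ratios scaling, -0.06 after quantile normalization, -0.10 without WT stage II replicate 1, -0.06 without mutant stage II replicate 1; -0.10 to 0.22 over all such fits), upf1 (-0.02) and upf3b (-0.01, both median-of-ratios). Between stages they turned in WT for upf3b (-0.02) and rbm8a (0.05) after quantile normalization. In mutants they turned for upf3b (-0.19) and pym1 (-0.39) after median-of-ratios scaling, for upf3b (-0.27), rbm8a (0.18) and pym1 (-0.48) after quantile normalization, and for pym1 without mutant stage I replicate 1 (-0.18) or mutant stage II replicate 1 (-0.04), within -0.18 to 0.19 over all such fits.

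Pathway rises at stage I numbered 10 with no filter and 9 to 15 on leaving out 1 library (9 without mutant stage I replicate 2). Pathway falls at stage II numbered 16 after median-of-ratios scaling; leaving out 1 library gave 11 to 19 rises and 4 to 11 falls there, and 5 to 12 upward and 5 to 9 downward differences between the stages' genotype effects (12 upward without WT stage I replicate 2, 5 downward without WT stage I replicate 1). In mutants between stages there were 16 rises and 17 falls after median-of-ratios scaling. Signs turned for pabpc1a in WT (0.12, quantile), and in mutants for xrn2 (-0.10), thoc3 (-0.07), thoc1 (-0.14), ruvbl2 (-0.03) and pnn (-0.07) after median-of-ratios scaling and for smg5 (-0.05) and dcp1a (-0.04) after quantile normalization. The stage I difference of magoh stayed between -5.64 and -4.85 in the 17 alternatives. The alternatives for members at stage I, and for pathway genes outside the stage I genotype comparison, were chosen after seeing the data. The cause of these changes was not tested. With 2 libraries per group and unknown depth, small differences and those of genes near 1 FPKM are the least certain.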
